A study of Mus musculus with 2 samples.

Results

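The genes described here are 10 regulators that direct cells between endothelial, myeloid and erythro-megakaryocytic fates: Gfi1, Gfi1b, Spi1, Myb, Ikzf1, Cebpa, Cebpb, Gata1, Klf1 and Kdm1a. They were chosen by name and make up 10 of the 24543 genes in the count tables, and all 10 were present in both tables. The cells were CD31+CD44+ cells sorted from the caudal part of C57BL/6 mouse embryos at E10.0, when blood stem cell precursors bud from the wall of the dorsal aorta. The study compared embryos in which Nupr1 was deleted (VEC-Cre; Nupr1 fl/fl, called cKO) with their littermate controls, labelled WT, which the study describes as Nupr1 fl/fl or Nupr1 fl/+ embryos. VEC-Cre is driven by the Cdh5 promoter, so the deletion is made in endothelial cells and passed on to the cells that descend from them. Control and cKO cells carried different hashtags and were run together in 1 lane of 10x Chromium V3 per replicate, with 2 replicates, which gave 4 pools: control and cKO in replicates 1 and 2. The number of embryos in a pool was not used here, and p-values measure only the spread between these pools, which may be technical.

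Gfi1 and its paralog Gfi1b are zinc finger repressors that switch off endothelial genes when hemogenic endothelium turns into blood, and they act through a complex of the histone demethylase Kdm1a (LSD1) and CoREST proteins. Spi1 (PU.1) and the C/EBP factors Cebpa and Cebpb drive myeloid genes. Gata1 drives erythroid and megakaryocytic genes, Klf1 drives erythroid genes, and Spi1 and Gata1 are known to oppose each other. Myb and Ikzf1 (Ikaros) are required for definitive progenitors and for the lymphoid and myeloid branches.

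Cells were grouped by marker genes, none of them one of the 10. Macrophage-gated cells had C1qa at 100 UMIs per 1000000 UMIs of the cell (CPM) or more, megakaryocyte-gated cells had Gp9 at 100 CPM or more, and myeloid-gated cells had Mpo and Fcgr3 each at 100 CPM or more. Cells with at least 1 UMI each of Neurl3, Procr and Kit were called EHT-gated (endothelial-to-hematopoietic transition), and the remaining cells with Gja5 at 100 CPM or more were called arterial. Of the rest, cells with Ptprc and Kit UMIs were called progenitor-gated and cells with Cdh5 at 100 CPM or more other endothelial, and 197 cells passed no gate. The 2139 cells gave 624 macrophage-gated, 225 megakaryocyte-gated, 129 myeloid-gated, 273 EHT-gated, 435 arterial, 104 progenitor-gated and 152 other endothelial cells. Of the macrophage, megakaryocyte, myeloid and EHT tests, 20 cells passed more than 1, and these are the cells of more than 1 gate below. Overlap with the later tests was not counted there, and 84 EHT-gated cells also had Gja5 at 100 CPM or more. A further overlap is with the progenitor test, which 104 EHT-gated cells met by a Ptprc UMI beside Kit. The progenitor gate therefore holds only cells that lack a Neurl3 or a Procr UMI. The EHT gate is loose at its edge, since 58 of its 273 cells had exactly 1 Neurl3 UMI.

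UMIs of 1 gate and 1 pool were summed, and each sum of at least 10 cells was treated as 1 sample. Replicate 1 held 6 megakaryocyte-gated control cells and 0 such cKO cells, and 6 myeloid-gated cKO cells, so that the megakaryocyte gate has 2 sums, the myeloid gate 3 and the others 4. The pools held between 14981582 and 46037450 UMIs. Nupr1 itself, the deleted gene, stood at 14.4 and 21.5 CPM over all control cells and at 0.573 and 1.50 CPM over all cKO cells. The labels of gates were checked on other genes. Together, 10 myeloid target genes reached 2747 to 3445 CPM in the myeloid gate against 117 to 230 CPM in the EHT gate, and 10 endothelial genes, 1 of them the gate marker Cdh5, reached 3162 to 3970 CPM in arterial cells and 1036 to 1183 CPM in EHT-gated cells. Xist, the RNA of the inactive X chromosome, stood at 417 and 257 CPM in the control pools and at 4.24 and 144 CPM in the cKO pools. The libraries shared 0 cell barcodes.

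In the GRCm38 assembly Gfi1 lies on the minus strand at chr5:107716657-107726036 and Gfi1b on the minus strand at chr2:28609450-28621982. Spi1 is at chr2:91082390-91115756 on the plus strand, Cebpb at chr2:167688915-167690418 on the plus strand and Cebpa at chr7:35119293-35121928 on the plus strand. Myb is at chr10:21124935-21160984 on the minus strand and Ikzf1 at chr11:11685003-11772926 on the plus strand. Gata1 is at chrX:7959260-7978071 on the minus strand, Klf1 at chr8:84901928-84905291 on the plus strand and Kdm1a at chr4:136550540-136602723 on the minus strand. All 10 are protein-coding genes of GENCODE M21. The promoters of the paralogs Gfi1 and Gfi1b and of Gata1 are shown because Gfi1 stood apart from Gfi1b across the gates below, while Gfi1b and Gata1 were both highest in megakaryocyte-gated cells. Each window runs from 250 bases before to 50 bases after a RefSeq start (build GRCm38.p6, 5′ to 3′ along the gene), with CpG dinucleotides in capitals.
Gfi1, chr5:107725756-107726055, minus strand: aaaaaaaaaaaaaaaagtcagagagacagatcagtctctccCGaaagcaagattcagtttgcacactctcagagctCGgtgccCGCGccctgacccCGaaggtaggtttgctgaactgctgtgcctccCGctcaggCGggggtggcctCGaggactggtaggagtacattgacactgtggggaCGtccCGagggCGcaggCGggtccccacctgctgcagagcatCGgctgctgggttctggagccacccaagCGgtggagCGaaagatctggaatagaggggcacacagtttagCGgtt
Gfi1b, chr2:28621933-28622232, minus strand: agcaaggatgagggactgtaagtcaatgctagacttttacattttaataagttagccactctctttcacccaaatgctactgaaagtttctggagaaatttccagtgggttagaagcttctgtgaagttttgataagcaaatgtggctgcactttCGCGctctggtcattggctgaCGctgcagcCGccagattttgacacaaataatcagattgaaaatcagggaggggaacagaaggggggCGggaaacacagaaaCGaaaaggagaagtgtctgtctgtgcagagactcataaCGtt
Gata1, chrX:7967861-7968160, minus strand: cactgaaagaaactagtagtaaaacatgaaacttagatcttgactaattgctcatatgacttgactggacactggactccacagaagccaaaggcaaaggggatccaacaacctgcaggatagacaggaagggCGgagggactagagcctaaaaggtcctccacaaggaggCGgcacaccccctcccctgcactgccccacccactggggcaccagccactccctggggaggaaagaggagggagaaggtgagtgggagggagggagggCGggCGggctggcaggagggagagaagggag
This Gfi1 window held 16 CpG and a second Gfi1 window held 10, against 7 for Gfi1b, 4 for Gata1 and a median of 7 over 32851 promoters of the same length. Windows were found for 9 of the 10 genes, 11 windows in all. Cebpb (50), Myb (40), Cebpa (29), Kdm1a (29) and 1 of the Ikzf1 windows (52) were richer in CpG, while Klf1 held 3 and the other Ikzf1 window 2. The motifs searched, 4 in all, were looked for on either strand. They were AGATAA, read by GATA factors, GAGGAAGT, read by PU.1, CCACACCC, read by KLF1, and AATCAC, read by GFI factors. These exact letters were in none of the 11 windows, and shorter or variant forms of the motifs were not searched. Over all promoters the shares with a match were 11.2%, 3.20%, 3.56% and 10.4%.

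Gfi1, the repressor that marks hemogenic endothelium, was highest in EHT-gated cells. Its level there was 64.9 and 61.7 CPM in the control pools and 70.5 and 43.7 CPM in the cKO pools (60.2 ± 11.6 CPM, mean ± SD, n = 4). The myeloid gate held 10.4 to 21.0 CPM, the progenitor gate 2.71 to 24.2 CPM, arterial cells 7.35 to 13.8 CPM and other endothelial cells 0 to 15.1 CPM. No EHT-gated sum overlapped with the sums of any other gate, whereas the ranges of these 4 gates overlapped with each other. Macrophage-gated cells had 1 Gfi1 UMI among 36903467 UMIs. By edgeR's quasi-likelihood test over the sums, Gfi1 was higher in EHT-gated than in arterial cells by 2.63 ± 0.58 on the log2 scale (SE, adjusted p = 0.00119), and lower in progenitor-gated than in EHT-gated cells (log2 difference −2.62 ± 0.63, adjusted p = 0.00395). It was also lower in the myeloid gate than in the EHT gate (log2 difference −1.93 ± 0.63, adjusted p = 0.0170). Without control replicate 2 the progenitor difference was −2.57 and the myeloid difference −1.68, with adjusted p of 0.0615 and 0.162, and with DESeq2 the myeloid difference had an adjusted p of 0.107.

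Gfi1b, which takes over from Gfi1 in erythroid and megakaryocytic cells, had another order. The 2 megakaryocyte-gated sums stood at 266 CPM each. Progenitor-gated sums held 27.2 to 55.7 CPM, myeloid-gated sums 19.6 to 22.6 CPM and EHT-gated sums 7.32 to 13.8 CPM, with no overlap between these 4 gates. Arterial cells held 0, 5.18, 0 and 0.331 CPM in the 2 control and 2 cKO pools. Gfi1b was higher in the megakaryocyte gate than in the progenitor gate by 2.76 ± 0.55 (log2, edgeR, adjusted p = 0.000463) and higher in EHT-gated than in arterial cells by 2.84 ± 0.80 (adjusted p = 0.00761), although the latter was not called without cKO replicate 2 (adjusted p = 0.0903). From the EHT to the progenitor gate it rose by 2.07 ± 0.54 (adjusted p = 0.00680); this was not called with DESeq2 (adjusted p = 0.128) or without cKO replicate 2 (adjusted p = 0.0654). The steps from progenitor to myeloid (adjusted p = 0.337) and from myeloid to EHT cells (adjusted p = 0.107) did not pass the test. The step from myeloid to EHT cells was called in 5 alternatives, which were without control replicate 2 (adjusted p = 0.0119), with gate cut-offs halved (0.0495), with EHT markers at 20 CPM (0.0427), without cells of more than 1 gate (0.0353) and with thinned cells (0.00625). In macrophage-gated cells Gfi1b was lower than in EHT-gated cells (log2 difference −2.27 ± 0.65, adjusted p = 0.00579), but not without cKO replicate 2 (adjusted p = 0.134).

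Spi1, the ETS factor of myeloid and lymphoid cells, was higher in the sums of the EHT, progenitor, myeloid and macrophage gates than in those of the other named gates. EHT-gated sums held 195, 216, 193 and 247 CPM in control 1, control 2, cKO 1 and cKO 2. Levels were 254 ± 35.4 CPM in progenitor-gated (n = 4), 367 ± 58.8 CPM in myeloid-gated (n = 3) and 434 ± 90.0 CPM in macrophage-gated cells (n = 4). No step between neighbours in this order passed the test (adjusted p = 0.649, 0.450 and 0.801 by edgeR), but the macrophage gate was above the EHT gate by 1.22 ± 0.47 (log2, adjusted p = 0.0377). Without control replicate 1, control replicate 2 or cKO replicate 2 this difference kept its direction with an adjusted p of 0.0619, 0.121 and 0.0664. With Gja5-high cells left out of the EHT gate it was 1.03 (edgeR, adjusted p = 0.0848), and with control cells only 1.27 (adjusted p = 0.222). Arterial cells held 2.01 to 17.1 CPM and lay below every EHT-gated sum (log2 difference of EHT against arterial cells 4.72 ± 0.60, adjusted p = 4.40e-06). Other endothelial cells held 6.90 and 40.0 CPM in the controls and 6.32 and 58.2 CPM in the cKO pools. They were called above arterial cells by 1.75 ± 0.63 (log2, edgeR, adjusted p = 0.04996), at the edge of the threshold. In cKO replicate 1 the order was the reverse, with 7.59 CPM in arterial cells. The 3 cells with most Spi1 held 44% of the Spi1 UMIs of the other endothelial cells. Megakaryocyte-gated sums held 22.3 and 47.4 CPM, lower than the EHT gate (log2 difference −2.44 ± 0.65, adjusted p = 0.00428; without control replicate 2, adjusted p = 0.0967). With the gate cut-offs halved the megakaryocyte difference was −0.92 (adjusted p = 0.0857).

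Cebpb, a C/EBP factor of macrophages and of emergency myelopoiesis, ran close to Spi1. EHT-gated sums held 149 to 189 CPM, progenitor-gated sums 147 to 206 CPM, myeloid-gated sums 185 to 316 CPM and macrophage-gated sums 346 to 429 CPM. The macrophage sums lay above all others without overlap, but the step from myeloid to macrophage cells had an adjusted p of 0.188. Against the EHT gate, Cebpb was higher in macrophage-gated (log2 difference 1.29 ± 0.23, adjusted p = 5.10e-05) and in myeloid-gated cells (0.83 ± 0.25, adjusted p = 0.00820), the latter with an adjusted p of 0.0599 without control replicate 2. It was already higher in EHT-gated than in arterial cells by 3.11 ± 0.26 (adjusted p = 6.64e-09).

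Cebpa, which commits progenitors to the granulocyte-monocyte branch, was nearly absent from EHT-gated cells, in contrast to Cebpb. The 4 EHT-gated sums held 5, 3, 2 and 7 Cebpa UMIs, which is 0.429 to 1.76 CPM. Levels were 16.0 ± 3.78 CPM in the progenitor gate, 36.8 ± 6.87 CPM in the myeloid gate (n = 3) and 16.8 ± 5.69 CPM in the macrophage gate. The myeloid gate lay above both neighbours without overlap, and was higher than the progenitor gate by 1.26 ± 0.38 (log2, adjusted p = 0.0314) and than the macrophage gate by 1.07 ± 0.35 (adjusted p = 0.0276). The rise from the EHT to the progenitor gate was 4.02 ± 0.51 (adjusted p = 3.87e-06). The EHT-gated level was not separable from that of arterial cells (4 UMIs, adjusted p = 0.227).

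Myb and Ikzf1 are factors of definitive progenitors, and both were far higher in EHT-gated than in arterial cells. Myb stood at 81.6 to 133 CPM in EHT-gated, 84.6 to 173 CPM in progenitor-gated and 86.4 to 131 CPM in myeloid-gated cells. The 3 ranges overlapped, and the comparisons of the progenitor and myeloid gates with the EHT gate had adjusted p of 0.442 and 0.351. Macrophage-gated sums held 4.75 to 8.19 CPM of Myb, lower than the EHT gate by 3.89 ± 0.32 on the log2 scale (adjusted p = 7.67e-10). Arterial cells held 1.32 to 3.35 CPM, and the log2 difference of EHT against arterial cells, 5.66 ± 0.40 (adjusted p = 8.94e-10), exceeded those of the other 9 genes. Ikzf1 was also higher in EHT-gated than in arterial cells (5.09 ± 0.38, adjusted p = 1.22e-09), with 25.4 to 43.0 CPM against 0.662 to 1.67 CPM. Against the EHT gate, Ikzf1 was higher in the progenitor gate at 71.4 ± 10.6 CPM (1.06 ± 0.24, adjusted p = 0.00168) and in the myeloid gate at 46.1 to 81.9 CPM (0.99 ± 0.25, adjusted p = 0.00245). It stood at 36.5 ± 5.63 CPM in macrophage-gated cells, which did not differ from the EHT gate beyond the spread (adjusted p = 0.550).

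Gata1, a factor of erythroid and megakaryocytic cells, and the erythroid factor Klf1 were close to zero in endothelial and EHT-gated cells. Gata1 stood at 186 and 171 CPM in the 2 megakaryocyte-gated sums, at 24.4 to 35.5 CPM in the myeloid gate and at 5.86 to 25.4 CPM in the progenitor gate. The EHT gate held 10 Gata1 UMIs in all, 8 of them in 1 cell of cKO replicate 2. Gata1 was called higher than in the EHT gate in the progenitor (adjusted p = 0.000344), myeloid (adjusted p = 5.89e-06) and megakaryocyte gates (adjusted p = 1.94e-08). In replicate 1 the progenitor-gated Gata1 UMIs, 8 in the control and 11 in the cKO sum, came from 1 cell each. Klf1, which turns on the globin locus, was at 17.7 ± 5.43 CPM in the myeloid gate and at 5.16 and 5.44 CPM in the megakaryocyte gate, against 9 UMIs in all EHT-gated cells. Klf1 was called higher than in the EHT gate in the progenitor (adjusted p = 0.000109), myeloid (adjusted p = 6.07e-05) and megakaryocyte gates (adjusted p = 0.00591), the last with an adjusted p of 0.0573 without cKO replicate 2. In the progenitor gate the Klf1 sums were 0 and 42.0 CPM in the controls and 11.2 and 22.6 CPM in the cKO pools, a spread wider than the mean of 18.9 CPM. All 12 Klf1 UMIs of the progenitor-gated cKO sum of replicate 1 came from 1 cell, which also held 11 Gata1 UMIs. Arterial cells had 0 Klf1 UMIs among 11401476 UMIs, which allows a level of up to 0.263 CPM (3 counts, counting error only).

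Kdm1a, the demethylase that Gfi1 and Gfi1b recruit, was found in every gate. Arterial cells held 144 to 198 CPM, EHT-gated cells 125.2 to 181 CPM and other endothelial cells 118 to 178 CPM, and these ranges overlapped. Between EHT-gated and arterial cells the log2 difference was −0.13 ± 0.19 (adjusted p = 0.623). Kdm1a was lower than in the EHT gate in myeloid-gated (log2 difference −0.98 ± 0.21, adjusted p = 0.000631), macrophage-gated (−1.002 ± 0.19, adjusted p = 0.000108) and megakaryocyte-gated cells (−1.01 ± 0.24, adjusted p = 0.00120; without cKO replicate 2, adjusted p = 0.0558). For the progenitor gate the difference from the EHT gate was −0.41 ± 0.19 (adjusted p = 0.117), and it was called in the fit with the replicate as a block (−0.43, adjusted p = 0.000565). Wherever a genotype had both replicates in a gate, the sum of replicate 1 lay above that of replicate 2.

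**Figure D1:**
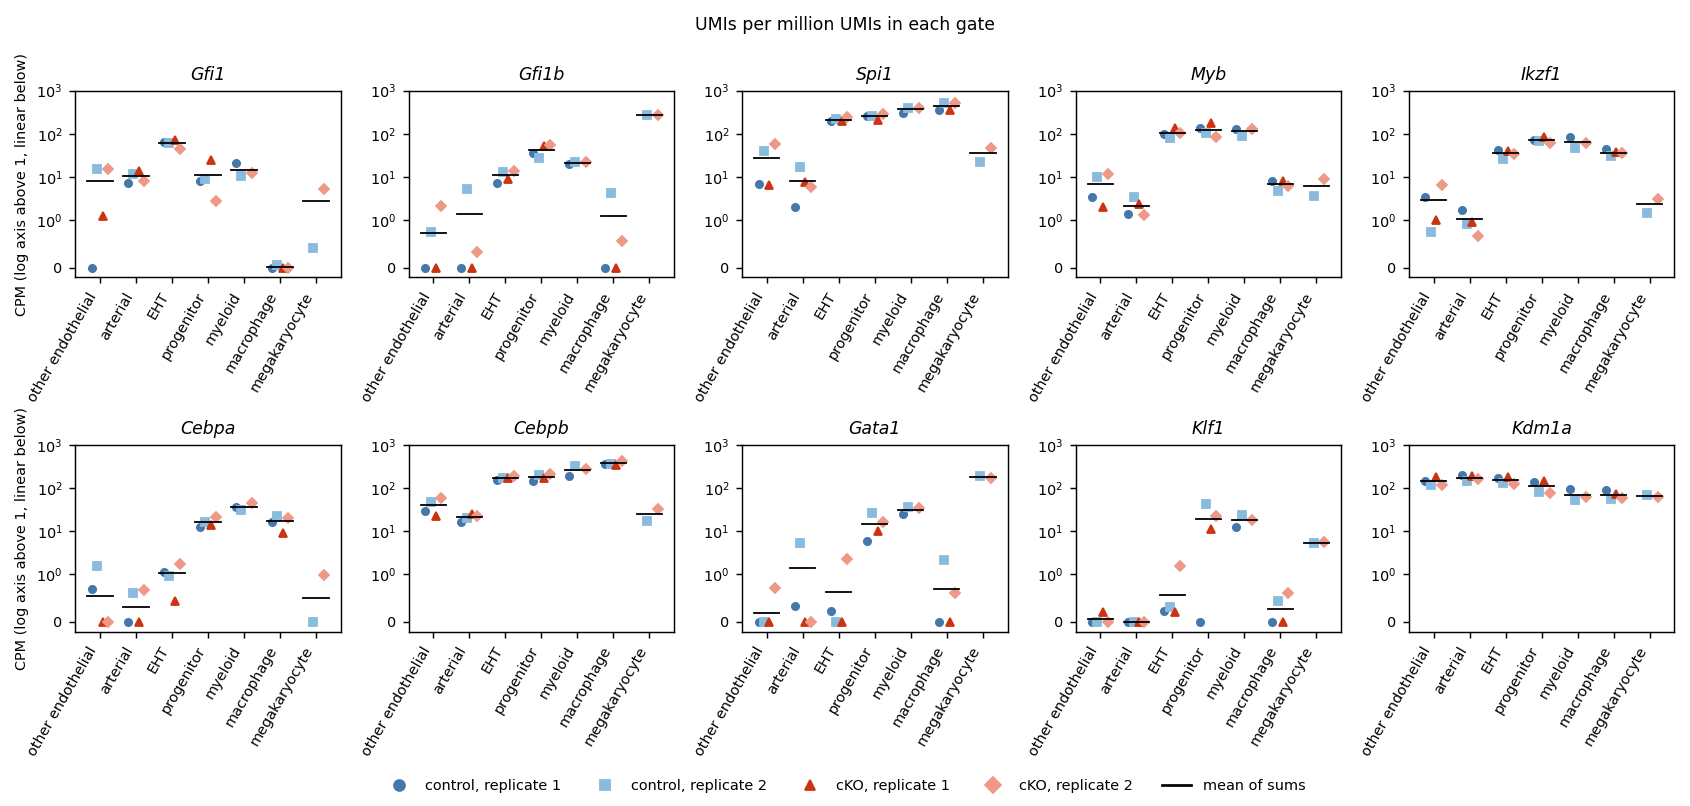
Level of each of the 10 genes in CPM (vertical axis, logarithmic above 1 and linear below) in 7 marker gates, with 1 point for each sum of 1 pool and a bar for the mean of the sums. Gfi1 peaks in EHT-gated cells at 60.2 CPM, Gfi1b and Gata1 peak in megakaryocyte-gated cells, and Kdm1a stays between 52.1 and 198 CPM in every gate.

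Counted together, 6 of the 10 genes were called between EHT-gated and arterial cells, all 6 higher in EHT-gated cells, where 40.9% of the 11855 tested genes were called. Between the progenitor and EHT gates 6 were called, 5 higher and 1 lower (26.8% of all genes). Of the 10, 7 were called between the myeloid and EHT gates, 5 higher and 2 lower (46% of all genes), and 7 between the macrophage and EHT gates, 3 higher and 4 lower (50.6%). Between the megakaryocyte and EHT gates 9 were called, 3 higher and 6 lower (50.1%). Between other pairs of gates, chosen after the levels were seen because they are neighbours in the order of levels, 7 of the 10 were called between macrophage-gated and myeloid-gated cells, all lower in macrophages (25.8% of all genes). There was 1 between myeloid-gated and progenitor-gated cells (12.7%), 8 between megakaryocyte-gated and progenitor-gated cells (37.9%) and 2 between arterial and other endothelial cells (24.6%). The median log2 difference of EHT against arterial cells was 2.97 over the 10 genes and 0.02 over all genes.

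The LSD1-CoREST genes, scaffold and deacetylase subunits that work with Kdm1a, were compared between the same gates. All 9 were tested: 1 was higher and 3 were lower in EHT-gated than in arterial cells, with Gse1 at 1.27 ± 0.29 (adjusted p = 0.00121) and Hmg20b at −0.67 ± 0.15 (adjusted p = 0.000871). These 4 of 9 are near the 40.9% of all genes called there. In myeloid-gated against EHT-gated cells 7 of the 9 were lower, among them Rcor3 (−1.56 ± 0.37, adjusted p = 0.00140) and Zmym2 (−1.54 ± 0.23, adjusted p = 8.32e-06), and in macrophage-gated against EHT-gated cells 8 of the 9 were lower, where 46% and 50.6% of all genes were called in either direction. Their median log2 difference was −0.76 for myeloid-gated cells, against −0.11 over all genes. Kdm1a was lower in the same gates.

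Genes that are known targets of these factors were compared between the same gates. All 10 myeloid targets of Spi1 and the C/EBP factors were higher in myeloid-gated than in EHT-gated cells, where 46% of all genes were called in either direction. Among them were the granule proteases Elane, with 2 UMIs in all EHT-gated cells, and Ctsg, with 0 UMIs there and 13.9 to 62.1 CPM in the myeloid gate. In EHT-gated against arterial cells 4 of the 10 were higher and 0 lower, among them Lyz2 (4.88 ± 0.72, adjusted p = 1.95e-05) and the integrin gene Itgam, with 2 UMIs in all arterial cells (adjusted p = 1.11e-06). Over all genes 40.9% were called in either direction, 2438 higher and 2415 lower of 11855. The median log2 difference of the 10 targets was 2.45, against 0.02 over all genes. Of the 10 erythroid and megakaryocyte targets only 4 could be tested. All 4 were higher in megakaryocyte-gated than in EHT-gated cells, where 50.1% of all genes were called, with Pf4 at 9.09 ± 1.20 and the integrin gene Itga2b at 5.18 ± 0.43. None of these 4 was called in myeloid-gated against EHT-gated cells, where 46% of all genes were called and Gata1 was among them. The endothelial programme, which Gfi1 and Gfi1b are known to repress, was lower in EHT-gated than in arterial cells for 9 of 10 genes. In this comparison 40.9% of all genes were called. Flt1 was at −2.13 ± 0.39 (adjusted p = 0.000170) and Kdr at −2.03 ± 0.41 (adjusted p = 0.000527). The exception was Erg, an ETS factor of endothelium and early blood (−0.14 ± 0.24, adjusted p = 0.683). All 10 were lower in progenitor-gated than in EHT-gated cells, where 26.8% of all genes were called and Gfi1 itself was lower. The progenitor gate holds only cells under the Gja5 cut-off, while 84 EHT-gated cells were at or above it. It also holds no cell with UMIs of both Neurl3 and Procr, since such cells with Kit went to the EHT gate. The part of these choices of cells in the difference, and in that of Gfi1, was not tested.

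Of 14 partner factors, which bind DNA together with the 10 genes or belong to their families, 13 were tested and 7 were higher and 0 lower in EHT-gated than in arterial cells, where 40.9% of all genes were called. The largest fitted differences were those of Cebpe, with 27 UMIs in EHT-gated and 0 in arterial cells (adjusted p = 0.00292), and Nfe2 (3.96 ± 0.40, adjusted p = 6.40e-08). In macrophage-gated against EHT-gated cells 2 were higher and 7 lower, where 50.6% of all genes were called, with Irf8, a partner of PU.1, at 4.12 ± 0.49 (adjusted p = 4.56e-07) and Gata2 at −5.58 ± 0.36 (adjusted p = 1.23e-11). In megakaryocyte-gated against EHT-gated cells Zfpm1 (FOG1), the cofactor of Gata1, was higher by 1.96 ± 0.18 (adjusted p = 6.69e-09), and Irf8 was lower (−3.09 ± 0.82, adjusted p = 0.00376). Mesenchymal genes, whose cells the sort could carry along, summed to 43.4 to 74.4 CPM in the EHT gate and 54.5 to 216 CPM in arterial cells. In the cells of no gate they summed to 0 to 2892 CPM per pool. Myog, Pdgfra and Col1a1 were too low to test in the gates.

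EHT-gated cells still differed among themselves in how arterial they were, so they were split at 100 CPM of Gja5, the arterial connexin, into 84 cells at or above and 189 cells below. This split and the next were chosen after the levels per gate had been seen. Gfi1 did not differ between them beyond the spread of the pools: 38.7, 45.2, 89.6 and 49.4 CPM in control 1, control 2, cKO 1 and cKO 2 with high Gja5, and 70.6, 65.9, 62.5 and 41.9 CPM below it (log2 difference of high against low −0.15 ± 0.26, adjusted p = 0.729). In 2 pools the Gja5-high cells had more Gfi1 and in 2 less. Spi1, Myb, Ikzf1, Cebpb and Gfi1b were lower in the Gja5-high cells in all 4 pools, while Cebpa, Gata1 and Klf1 were too low to test. Spi1 fell to 94.9 ± 11.9 CPM against 247 ± 35.5 CPM (−1.45 ± 0.17, adjusted p = 6.82e-05), and Myb to 36.0 ± 23.7 CPM against 126 ± 26.8 CPM (−1.85 ± 0.32, adjusted p = 0.00124).

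Ikzf1 (−2.21 ± 0.38, adjusted p = 0.00117), Cebpb (−1.23 ± 0.17, adjusted p = 0.000218) and Gfi1b (−3.15 ± 0.60, adjusted p = 0.00243) were lower too. Gfi1b had 6 UMIs in all Gja5-high cells and 164 in the others. Kdm1a did not pass the test (0.20 ± 0.17, adjusted p = 0.464). In all, 5 of the 7 genes that could be tested were called, where 19% of 9195 genes were called, which was 1750 genes and 3246 with the replicate as a block. Depth moved with the split, at a median of 35305 UMIs per Gja5-high cell and 59454 per other cell. After each cell was thinned to 6000 UMIs, Gfi1 stayed at 0.05 ± 0.36 (adjusted p = 0.953), while Spi1 (−1.89), Myb (−3.98) and Cebpb (−1.61) were called and Gfi1b and Ikzf1 were too low to test.

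The second split separated 104 EHT-gated cells with at least 1 UMI of Ptprc, the pan-leukocyte gene CD45, from 169 without. Spi1 was higher with Ptprc, at 216, 271, 258 and 328 CPM against 172, 178, 145 and 170 CPM in the same pools (log2 difference 0.70 ± 0.16, adjusted p = 0.0209), and so were Myb (0.80 ± 0.17, adjusted p = 0.0136) and Ikzf1 (1.22 ± 0.22, adjusted p = 0.00606). The 4 pools moved in the same direction for each of these 3 genes. Without cKO replicate 2 the Spi1 difference had an adjusted p of 0.0561, and without control replicate 2 that of Myb was 0.0518. Gfi1 was 54.0 ± 8.03 CPM with and 65.2 ± 15.2 CPM without Ptprc (−0.25 ± 0.19, adjusted p = 0.577), and Gfi1b was 14.1 ± 4.41 against 7.92 ± 3.98 CPM (0.84 ± 0.41, adjusted p = 0.310). Cebpb, at 0.29 ± 0.14 (adjusted p = 0.317), was called only in the fit with the replicate as a block (adjusted p = 0.0159). Of the 7 genes tested 3 were called, where 7.23% of 9235 genes were called, which was 668 genes and 1685 with the block. Cells with a Ptprc UMI were deeper, at a median of 64816 against 45295 UMIs, and cells were chosen by a count that depends on depth.

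**Figure D2:**
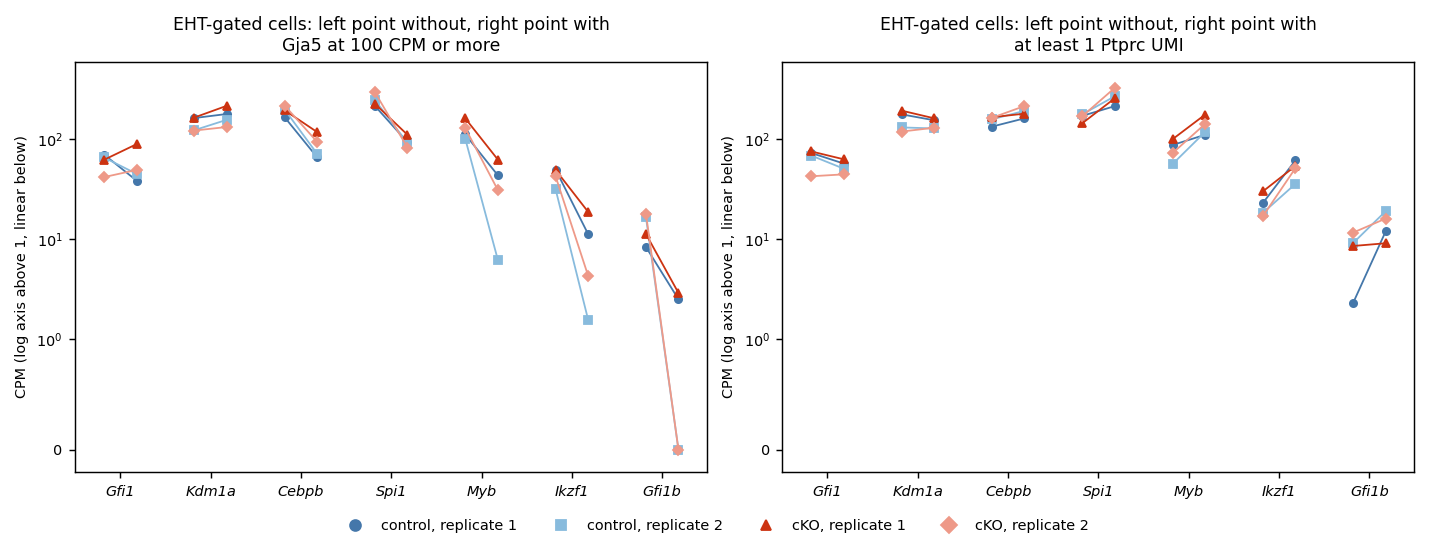
Level in CPM (vertical axis, logarithmic above 1) of 7 genes in EHT-gated cells without (left point) and with (right point) high Gja5 in the left panel, or a Ptprc UMI in the right panel, joined by a line for each of the 4 pools. The lines of Spi1, Myb, Ikzf1, Cebpb and Gfi1b fall in all 4 pools with high Gja5, while those of Gfi1 cross.

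For Gfi1, shares of cells with at least 1 UMI followed the order of the levels. Kdm1a shares did not, at 96.4% of megakaryocyte-gated cells (65.4 CPM) and 93.8% of arterial cells (172 CPM). Gfi1 was detected in 192 of 273 EHT-gated cells (70.3%, exact 95% binomial interval 64.5% to 75.7%, counting error only), in 37 of 435 arterial cells (8.51%) and in 1 of 624 macrophage-gated cells (0.160%). Median depth was 51696 to 64312 UMIs per cell in the macrophage-gated pools and 46743 to 54763 in the EHT-gated pools. Thinned to 6000 UMIs, Gfi1 was still detected in 30.4% of EHT-gated and 3.81% of arterial cells. The shares for EHT-gated cells were 77.7% for Spi1, 68.5% for Myb, 59.3% for Ikzf1 and 25.3% for Gfi1b, against 4.03% for Cebpa, 2.93% for Klf1 and 1.10% for Gata1.

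Shares of Spi1 and Cebpb in megakaryocyte-gated cells changed with depth. Spi1 was detected in 66.2% of megakaryocyte-gated cells and Cebpb in 58.7%, but after thinning these shares were 8.93% and 11.2%, against 3.57% and 10.95% in arterial cells. The thinned Cebpb share of megakaryocyte-gated cells was thus close to that of arterial cells. The part of free RNA in either share was not tested. The 3 cells with most Spi1 held 27.7% of all Spi1 UMIs of the megakaryocyte gate. Without cells that passed more than 1 gate the Spi1 level there was 25.9 CPM, against 34.9 CPM with them.

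Within EHT-gated cells, most cells with Gfi1 also carried Spi1. Both were detected in 181 cells, Gfi1 alone in 11, Spi1 alone in 31 and neither in 50, so that 94.3% of cells with Gfi1 and 38.3% of cells without it had a Spi1 UMI. After thinning the shares were 69.9% and 54.7%. Gfi1 and Gfi1b were detected together in 54 EHT-gated cells, Gfi1 alone in 138 and Gfi1b alone in 15. After thinning these counts were 2, 81 and 10. Gfi1b was found in 28.1% of EHT-gated cells with Gfi1 and 18.5% of those without, but after thinning in 2.41% and 5.26%. In progenitor-gated cells the balance was turned: Gfi1b alone was found in 52 of 104 cells, Gfi1 alone in 6 and both in 15. After thinning, Gfi1b alone was found in 21 of 103 progenitor-gated cells, Gfi1 alone in 5 and both in 0.

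Cebpa and Gata1, which lead to different branches, were both found in the myeloid gate. There 40 of 129 cells had UMIs of both, 51 of Cebpa alone, 18 of Gata1 alone and 20 of neither. Gata1 was detected in 44.0% of the cells with Cebpa and in 47.4% of those without. After thinning, 3 cells had both. In the macrophage gate Cebpa was detected in 51.3% of cells and Gata1 in 2.40%, and in the megakaryocyte gate Gata1 in 91.6% and Cebpa in 2.67%. Leaving out the cells that passed more than 1 gate gave 32.7 CPM of Gata1 in the myeloid gate, against 31.1 CPM with them. Doublets within 1 hashtag cannot be seen from the hashtags, and their part in these pairs was not tested.

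Before thinning, Klf1 was found in 3 gates mostly in cells that also carried Gata1. In the megakaryocyte gate all 40 cells with Klf1 had Gata1, in the progenitor gate 12 of 13, and in the myeloid gate 28 of 33. Over all cells of these gates Gata1 was detected in 91.6%, 18.3% and 45.0%, so the megakaryocyte count is near the share of that gate. After thinning, 5 megakaryocyte-gated cells had both and 1 had Klf1 alone. In the thinned myeloid gate 6 cells had both and 8 had Klf1 alone. Klf1 was detected in 63.2% of progenitor-gated cells with Gata1 and in 1.18% of those without, and after thinning in 42.9% and 3.12%. In the EHT gate, where 8 cells had a Klf1 UMI and 3 a Gata1 UMI, and in the macrophage gate, 0 cells had both.

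**Figure D3:**
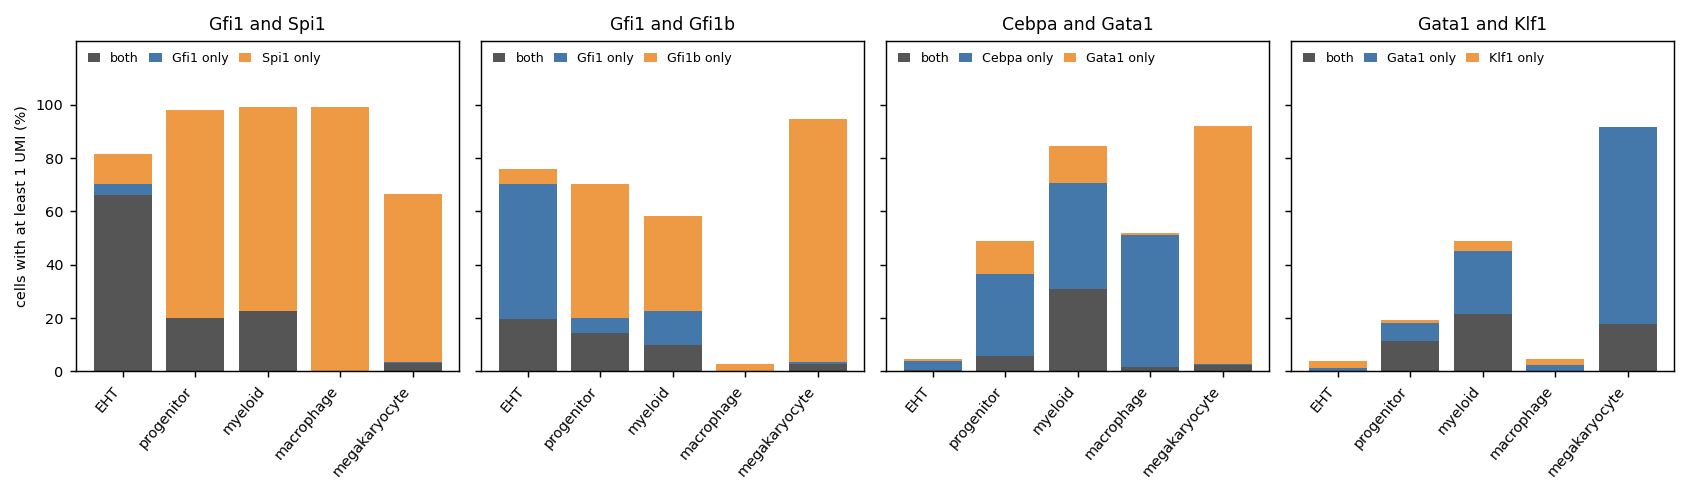
Percentage of cells of 5 gates with at least 1 UMI of 2 genes (dark), of the first gene alone (blue) or of the second alone (orange) for 4 pairs of genes, over the cells of all 4 pools without thinning. Gfi1 is found mostly with Spi1 in EHT-gated cells (181 of 192 cells as shown, 58 of 83 after thinning). Cebpa and Gata1 are both found in the myeloid gate. In the megakaryocyte gate Klf1 lies within the cells that have Gata1, which are 91.6% of that gate.

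The genes whose levels over the 25 sums of the 7 gates were most like each of the 10 were named by Pearson's r of log2(CPM + 1), as a description over sums that share libraries. Gfi1 was most like the keratin gene Krt18 (r = 0.89), Slc22a4 (0.85) and Hook1 (0.84). Among the genes most like Gfi1b were Tuba8 (0.98) and Smim5 (0.95), and Gata1 was most like 1110028F11Rik (0.97), Smim5 (0.96) and Ubash3a (0.94). Among the genes most like Spi1 were Phgdh (0.96) and the phosphatase gene Ptpn6 (0.95). Cebpb was most like Arl11 (0.96), Apbb1ip (0.96) and Arhgef6 (0.95), and Cebpa like Arhgap15 (0.97), Parvg (0.96) and Clec5a (0.96). Ikzf1 was most like Pstpip1 (0.98), Pak1 (0.98) and Fmnl1 (0.97), and Myb like Tfap4 (0.92), B9d2 (0.92) and Lppr3 (0.91). Klf1 was most like the erythroid adhesion gene Icam4 (0.91), Bdh1 (0.89) and Farsa (0.88). Kdm1a was most like BC005561 (0.98), Tcf12 (0.98) and the chromatin remodeller Smarca4 (0.97). Among the 10 themselves, Spi1 and Cebpb (0.96) and Gfi1b and Gata1 (0.87) were the closest pairs of their branches, while Gfi1 and Gfi1b had r = 0.26.

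Deletion of Nupr1 was then compared with littermate controls within each gate. None of the 10 genes was called in any of the 5 gates with a test by edgeR, and few genes were called at all. In EHT-gated cells Nupr1 was the only gene called, at 30.8 and 25.7 CPM in the controls and 1.71 and 3.01 CPM in the cKO pools (log2 difference −3.60 ± 0.39, adjusted p = 0.0448), which is 0.00938% of the 10656 tested genes. The number of genes with an unadjusted p under 0.05 was 78. With the replicate as a block 11 genes were called, still none of the 10.

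Gfi1 in EHT-gated cells was 64.9 and 61.7 CPM in the controls against 70.5 and 43.7 CPM in the cKO pools, which lay on either side of the controls (log2 difference of cKO against control −0.17 ± 0.27, adjusted p = 1.00). Gfi1b was 7.32 and 13.2 CPM against 8.79 and 13.8 CPM (0.14 ± 0.41). For Gfi1b the replicates differed from each other by more than the genotypes. Spi1 (0.08 ± 0.24), Cebpb (0.15 ± 0.23), Ikzf1 (0.09 ± 0.30) and Kdm1a (0.02 ± 0.25) were as close. Myb was 99.97 and 81.6 CPM in the controls and 133 and 107 CPM in the cKO pools, so that both cKO sums lay above both controls, at a log2 difference of 0.38 ± 0.23 and an unadjusted p of 0.138. Cebpa, Gata1 and Klf1 were too low to test in EHT-gated cells. The adjusted p of the 7 tested genes was 1.00 by edgeR.

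In the progenitor gate all 10 could be tested, with 0% of 8594 genes called by edgeR, 1 by DESeq2, 58 genes at an unadjusted p under 0.05 and 24 genes called with the block. Gfi1b showed the lowest p of the 10, at 35.2 and 27.2 CPM in the controls and 51.2 and 55.7 CPM in the cKO pools, which did not overlap (0.81 ± 0.31, unadjusted p = 0.0300, adjusted p = 1.00). Klf1 was at 0 and 42.0 CPM in the controls and 11.2 and 22.6 CPM in the cKO pools, with a log2 difference of −0.32 ± 1.44. When control replicate 2 was left out, Klf1 was called higher in cKO cells (fitted log2 difference 8.09, adjusted p = 0.00497), against a remaining control sum of 0 UMIs. Gata1, an X-linked gene, was at 5.86 and 25.4 CPM against 10.2 and 16.0 CPM (−0.26 ± 0.63), and Xist in the same sums was at 371 and 245 CPM against 0 and 164 CPM; its part in this comparison was not tested.

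In arterial cells 4 of the 10 could be tested and 0% of 10226 genes were called, with 119 at an unadjusted p under 0.05 and 20 called with the block. Gfi1 there was 7.35 and 11.9 CPM in the controls and 13.8 and 7.94 CPM in the cKO pools, a log2 difference of 0.15 ± 0.39. In macrophage-gated cells 6 were tested and 0% of 10714 genes were called (1 by DESeq2), with 67 at an unadjusted p under 0.05 and 10 called with the block. Spi1 was 359 and 510 CPM in the macrophage-gated controls and 353 and 513 CPM in the cKO pools, almost equal within each replicate (0.00 ± 0.32), while replicate 2 stood above replicate 1. Gfi1b was too low for the macrophage test over all 4 pools, but without control replicate 1 it was called lower in cKO cells (edgeR, adjusted p = 0.00421), with 45 of the 68 UMIs of control replicate 2 in 1 cell that also held 82 Gp9 UMIs.

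In the myeloid gate, where the cKO group is 1 sum and is assumed to vary like the controls, 0.224% of 9801 genes were called (22 genes, 4 with DESeq2) and none of the 10. Their log2 differences lay between −0.27 for Gfi1 and 0.41 ± 0.46 for Cebpa, which was 35.2 and 30.9 CPM in the controls and 44.4 CPM in the cKO sum. Of the 10 myeloid targets tested in the myeloid gate 1 was called and 9 were not. This was Ctsg, higher in the single cKO sum, at 62.1 CPM against 17.6 and 13.9 CPM in the controls (1.98 ± 0.47, adjusted p = 0.0148). The megakaryocyte gate has 1 sum per genotype and no test: Gfi1b stood at 266 CPM in each, Gata1 at 186 CPM in the control and 171 CPM in the cKO sum, and Gfi1 at 0.422 and 5.20 CPM. Of the Gfi1 UMIs of the megakaryocyte gate, 78.3% were in 3 cells. Whether the effect of the deletion differed between the arterial, progenitor or macrophage gate and the EHT gate was tested by an interaction term. In each of the 3 tests 0 of the 10 genes were called, and 0 of all 11447 tested genes. The count thus says little about the 10.

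The 6 gene lists were also compared between cKO and control in EHT-gated cells. Of the 9 LSD1-CoREST genes, 12 partner factors, 7 myeloid targets, 3 erythroid and megakaryocyte targets, 10 endothelial genes and 2 mesenchymal genes that were tested, 0 were called, where 0.00938% of all genes were called, so that the count says little about the lists. Their median log2 differences were 0.04, 0.12, −0.11, −0.21, 0.08 and −0.47, against −0.01 over all genes.

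**Figure D4:**
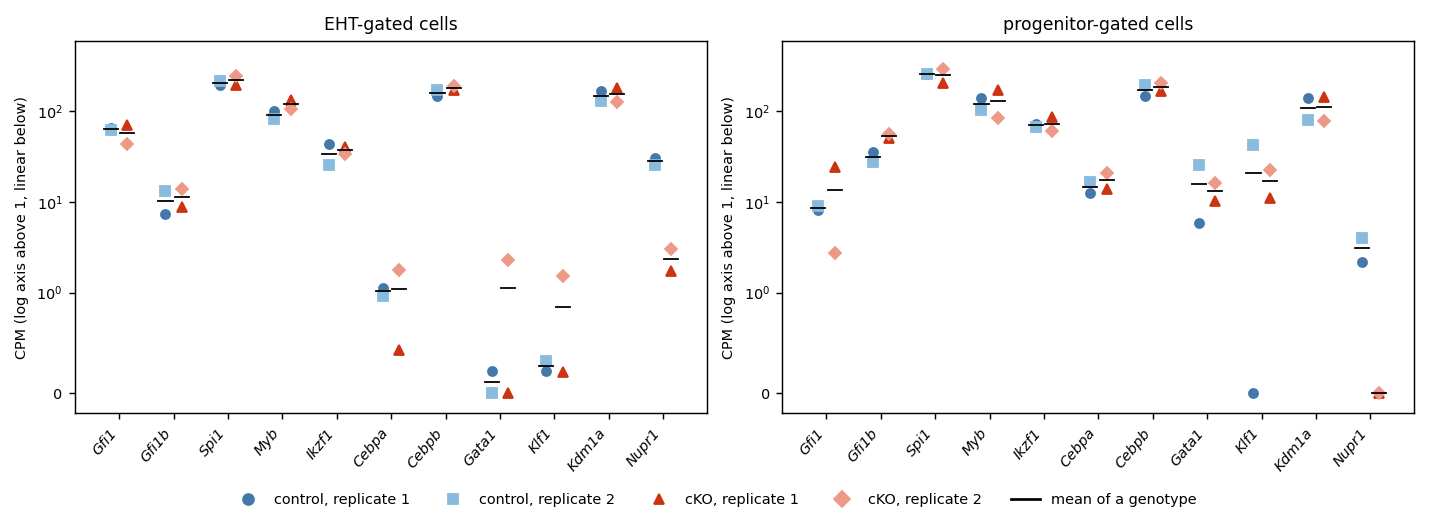
Level in CPM (vertical axis, logarithmic above 1 and linear below) of the 10 genes and of Nupr1 in control (blue) and cKO (red) sums of EHT-gated and progenitor-gated cells, with 1 point per pool and a bar for the mean of a genotype. Nupr1 separates the genotypes in EHT-gated cells, at 30.8 and 25.7 CPM against 1.71 and 3.01 CPM.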

How the data were processed

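Control and Nupr1 cKO cells from 2 replicates were analysed from the tables that the authors deposited. The deposited values are raw UMI counts per gene and cell, made by the authors with Cell Ranger 5.0.1 on mm10, per the labels. The study kept hashtag singlets and states limits of more than 1800 genes, more than 6000 UMIs and under 5% mitochondrial reads per cell; 101 deposited cells, all in replicate 1, did not meet these limits and were left out in an alternative. Levels and calls per gate rest on sums of at least 10 cells.

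Cells were assigned to the first gate they passed, in the order given above, and UMIs were summed per gate and pool. CPM are UMIs per 1000000 UMIs of the sum. edgeR 4.0.16 (quasi-likelihood, robust, TMM, filterByExpr) tested genotype within each gate and gates over all 7 named gates with genotype as a covariate, with Benjamini-Hochberg adjustment over all tested genes and a threshold of 0.05. The fitting script was tested on simulated counts. DESeq2 1.42.0 was an alternative, as were RLE scaling, no low-count filter, other gate cut-offs, stated cell limits, thinning each cell to 6000 UMIs and leaving out each pool. Control and cKO cells of a replicate shared a lane, and sums of the same replicate deviated together (r = 0.46 in the EHT gate over 10656 genes, 0.42 in arterial, 0.57 in progenitor and 0.48 in macrophage cells). For comparisons within a gate or with the EHT gate, the block fit is given where it changed a call or moved a count of calls by more than 1.5 times. The rule for named genes took all 10 genes, the 3 most like each, up to 4 per list with the highest and lowest change, and Nupr1; a few genes that this rule takes are not reported here. The 10 genes, the lists and the gates were chosen with earlier results of these data known. Promoter windows are from RefSeq and gene positions from GENCODE M21.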

Additional observations from a re-analysis of the deposited data

Results flagged for a closer look

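Of 49 sets of 4 sums (1 gene in 1 gate), 8 had a sum far from the other 3 by Dixon's criterion at the 95% level, where chance flags about 1 in 20. All 8 concern genes near the detection limit of their gate. In macrophage-gated cells, control replicate 2 stood apart for Gfi1, at 0.0633 CPM from 1 UMI, and for Gfi1b, at 4.30 CPM, of whose 68 UMIs 45 were in 1 cell with 82 UMIs of the platelet gene Gp9 and 85 of C1qa. In arterial cells, control replicate 2 stood apart for Gfi1b and for Gata1, each at 5.18 CPM from 17 UMIs; 1 cell held 13 of the Gfi1b and 16 of the Gata1 UMIs. In EHT-gated cells, cKO replicate 2 stood apart for Gata1 at 2.26 CPM (8 of 9 UMIs in 1 cell) and for Klf1 at 1.51 CPM (6 UMIs in 5 cells). In other endothelial cells Gata1 in cKO replicate 2 (0.719 CPM) and Klf1 in cKO replicate 1 (0.204 CPM) stood apart from 1 UMI each. What set these cells apart was not tested.

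Klf1 was also found in the 197 cells of no gate, which the comparisons do not use, at 37.9 CPM over all pools. It stood at 1.54 and 45.7 CPM in the controls and 0 and 44.1 CPM in the cKO pools, so that replicate 2 was high in both genotypes and replicate 1 was low. The UMIs came from 31 cells, of which 24 also had Gata1, 26 Gfi1b, 29 Myb and 23 Epor, the erythropoietin receptor gene. Of the 166 other cells of no gate, 10 had Gata1, 43 Gfi1b and 6 Epor. None of the 31 cells had a Gfi1 UMI, and 5 had a Ptprc UMI, which the progenitor gate requires together with Kit.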

How the results depend on the processing

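Over the alternatives, 1287 member fold changes kept their direction and side of the threshold, 82 changed sign without being called on either side, 66 of them for cKO against control, 32 lost the call, 12 gained it and 1 changed sign and was called. This one was Klf1 in progenitor-gated cKO cells without control replicate 2 (8.09 on the log2 scale), whose remaining control sum is 0. Its lowest value without 1 pool was −1.26, without control replicate 1. With control cells only, 12 calls were lost. The counts of genes called for cKO against control moved as follows. In EHT cells they were 6 with no low-count filter, 11 with the replicate block, 0 with gate cut-offs halved, EHT markers at 20 CPM or thinned cells, and 1 to 23 without 1 pool. In arterial cells they were 22 with no filter, 20 with the block and 1 to 18 without 1 pool. In progenitor cells they were 1 with DESeq2, 14 with no filter, 24 with the block, 1 with EHT markers at 20 CPM and 4 to 36 without 1 pool, with 0 to 1 of the 10 genes called. In myeloid cells they were 4 with DESeq2, 13 with cut-offs doubled, 3 with cut-offs halved and 2 with thinning. In macrophage cells they were 1 with DESeq2, 21 with no filter, 10 with the block, 1 with thinning and 10 to 43 without 1 pool, with 0 to 1 of the 10 called. Between gates, thinning gave 1985 genes for EHT against arterial cells, 919 for progenitor, 1898 for myeloid, 2649 for macrophage and 2224 for megakaryocyte against EHT cells. Control cells alone gave 1933, 817, 2835, 3394 and 3209, with 3 of the 10 called for progenitor and 4 for myeloid cells. Leaving Gja5-high cells out gave 2035 for progenitor cells. Leaving out 1 pool gave 1801 to 3010 for progenitor and 3850 to 5754 for megakaryocyte cells. For the Ptprc split the counts were 1247 with no filter, 1685 with the block, 187 with thinning and 357 to 564 without 1 pool, and for the Gja5 split 3246 with the block and 515 with thinning, with 3 of the 10 called. Thinning and leaving out pools lower the counts analysed; other causes were not tested. For cKO against control, for gates compared with the EHT gate and for the 2 splits, the block changed no other call of the 10 genes than those given above. Alternatives for the comparisons between other pairs of gates are not given here.

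Depth limits the low genes: Gata1, Klf1 and Cebpa had 10, 9 and 17 UMIs in the EHT gate. Each genotype has at most 2 sums per gate.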
